A study of Homo sapiens with 9 samples.

Results

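The mitochondrial genome encodes messenger RNAs for subunits of the respiratory chain, and 8 of these messages were listed by name in both tables of a study of poly(A) binding proteins: MT-CO2, MT-CO3, MT-ATP6, MT-ATP8, MT-ND3, MT-ND4, MT-ND4L and MT-ND5. They were chosen by gene name and not by value, and were compared with the 14581 genes that had a mean of more than 50 normalised reads (baseMean) in both tables. All 8 passed that filter. The study used HEK293T, a human cell line of embryonic kidney origin that expresses the SV40 large T antigen. The cells of all groups were labelled wildtype and were crosslinked with 0.1% formaldehyde for 10 min. There were 3 groups of 3 biological replicates each: input RNA from total lysate with no immunoprecipitation, RNA immunoprecipitation (RIP) of the nuclear poly(A) binding protein PABPN, and RIP of the cytoplasmic poly(A) binding protein PABPC. Each lysate was split between the antibodies, so both RIPs share the same input libraries, and the library kit removed ribosomal RNA and did not select poly(A) RNA.

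Mitochondrial messages are made inside the organelle. Both strands of the circular genome are transcribed into long RNAs that are cut at the transfer RNAs between the genes, and the mitochondrial poly(A) polymerase MTPAP adds a short tail to most of the released messages. MT-ATP8 and MT-ATP6 stay together on 1 message, as do MT-ND4L and MT-ND4. The tail does more than mark the end. Several messages leave the cutting step with an incomplete stop codon, which the first A bases of the tail complete. PABPN coats tails of nuclear transcripts and PABPC coats tails in the cytoplasm, where it takes part in translation, and neither is known as a protein of the mitochondrial matrix, where these messages are translated.

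All 8 genes lie on the heavy-strand transcript, annotated on the plus strand of chrM (hg38, GENCODE release 44), and none has an intron. The lengths given in both tables matched this annotation for all 8. MT-CO2 spans chrM:7586-8269, MT-ATP8 chrM:8366-8572, MT-ATP6 chrM:8527-9207, MT-CO3 chrM:9207-9990, MT-ND3 chrM:10059-10404, MT-ND4L chrM:10470-10766, MT-ND4 chrM:10760-12137 and MT-ND5 chrM:12337-14148. The frames of MT-ATP8 and MT-ATP6 share 46 bases, those of MT-ND4L and MT-ND4 share 7, and the last base of MT-ATP6 is the first of MT-CO3. The last 30 bases of each gene are printed because poly(A) binding proteins bind tails. They show where the coding sequence stops and whether its annotated stop codon is complete without one. Capitals mark the annotated stop codon, or the single base that is left of it.
MT-CO2: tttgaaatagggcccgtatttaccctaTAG
MT-ATP8: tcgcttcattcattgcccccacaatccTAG
MT-ATP6: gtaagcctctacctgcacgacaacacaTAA
MT-CO3: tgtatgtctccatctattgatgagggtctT
MT-ND3: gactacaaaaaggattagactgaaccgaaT
MT-ND4L: gtacataacctaaacctactccaatgcTAA
MT-ND4: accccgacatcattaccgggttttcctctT
MT-ND5: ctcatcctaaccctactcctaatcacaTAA
In MT-CO3, MT-ND3 and MT-ND4 a single T remained of the stop codon, so tail and coding sequence meet there. The last A of the MT-ATP6 stop codon is the base shared with MT-CO3. Where that base stays with MT-CO3, MT-ATP6 keeps only TA, and its stop codon is also incomplete without a tail. MT-ATP8 and MT-ND4L end inside the frame of their partner, far from the tail of the shared message. The windows around the second start codon show how the paired frames join, with the start codon in capitals, at chrM:8514-8543 for the first pair and chrM:10747-10776 for the second.
MT-ATP8/MT-ATP6: cctgagaaccaaaATGaacgaaaatctgtt
MT-ND4L/MT-ND4: taaacctactccaATGctaaaactaatcgt

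The tables hold means and fold changes only, but their digits determined the whole reads of each library for 14580 of the 14581 genes, the 8 messages included. Libraries are numbered here by rising size factor within a group. The size factor is the number by which DESeq2 divides a library's reads to correct for depth, and the numbers are not the replicate numbers of the labels. The 9 libraries held between 36561412 and 48085940 reads on these genes. Among HEK293T markers, the 8 listed had between 259 and 66434 normalised reads in input, and PTPRC, ALB, INS and CDH5, which mark other tissues, had between 0 and 5.04. In each group 1 library stood apart over all genes, namely input library 3, PABPN RIP library 1 and PABPC RIP library 3. Their deviations from the other libraries of their group had SDs of 0.291, 0.336 and 0.351 on the log2 scale, against 0.170 to 0.233 for the other 6, and were correlated with each other across genes (Pearson between 0.564 and 0.755 over 14580 genes, which are not independent replicates). These 3 were the only libraries on their side of the third principal component, which held 2.70% of the variance. Whether they came from the same lysate cannot be read from the tables, and results that rest on them are given with and without them below.

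The 8 messages were abundant in input but took a small share of all reads. They held 0.329% ± 0.0107 (SD, n = 3) of the reads in input, 0.107% ± 0.0104 in PABPN RIP and 0.277% ± 0.0585 in PABPC RIP. The PABPN RIP libraries ranged from 0.0970% to 0.118% and lay below the whole input range of 0.319% to 0.340%. Of the PABPC RIP libraries, library 3 had 0.210% and the others 0.304% and 0.317%, so all lay below the lowest input library, though by very different amounts. Group means taken from the tables over all listed genes gave the same picture, with 0.322% in input and 0.101% in RIP for PABPN, and 0.322% and 0.275% for PABPC. Per kilobase of gene, MT-CO3 had the highest input level of the 8 with 76255 normalised reads, MT-CO2 followed with 40691 and MT-ATP8 had the lowest with 5349. MT-ATP6, MT-ND4 and MT-ND4L lay close together at 19226, 18923 and 15771 reads per kilobase. These values divide by the full gene length, although the authors removed stretches shared by overlapping genes before counting. In MT-ATP8 46 of its 207 bases are shared with MT-ATP6, which lies on the same message. The low value of MT-ATP8 is therefore not the level of a separate message, and the part of the counting in it was not tested.

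**Figure D1:**
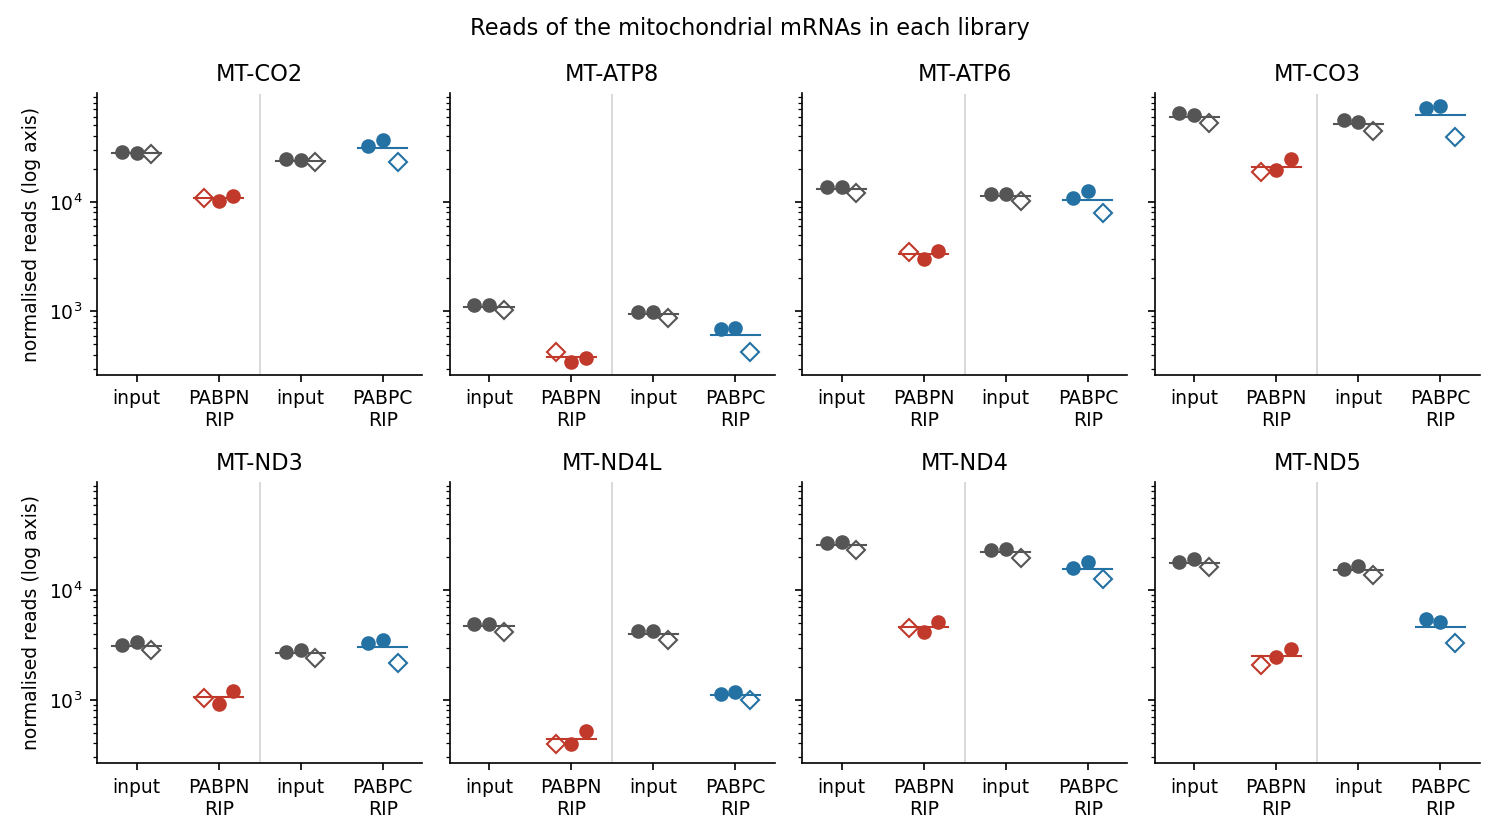
Normalised reads (log axis) of each message in each of the 9 libraries, 1 panel per gene. The left of a panel uses the size factors of the PABPN table and the right those of the PABPC table, so input appears in both; bars are means of 3 libraries and open diamonds are the libraries that stood apart over all genes. In every panel the PABPN RIP points lie below input, while in PABPC RIP the open diamond lies below the other libraries.

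The first question was whether mitochondrial messages were recovered with PABPN, relative to total RNA. All 8 were depleted, with log2 fold changes between -3.42 and -1.36, where depleted means a log2 fold change below -0.5 with a Benjamini-Hochberg (BH) adjusted p of at most 0.01 in the DESeq2 Wald test and baseMean above 50. Among all 15526 genes tested in this comparison 14.6% were depleted. The median of the 8 was -1.77, and that of all genes was -0.04, with 5% of genes below -0.92. RIP and input came from the same lysates of a whole culture. A low bound share in every cell and a bound share that varies between cells therefore cannot be told apart.

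The subunits of complex IV, cytochrome c oxidase, which passes electrons to oxygen, were the most abundant of the 8. MT-CO2, which carries the copper centre that takes up electrons from cytochrome c, had 28536, 27896 and 27067 normalised reads in the input libraries and 10891, 10233 and 11360 in the PABPN RIP libraries. The groups were far apart, and the log2 fold change was -1.36 (SE 0.09, adjusted p = 1.84e-47), the smallest of the 8. MT-CO3, a core subunit of the same enzyme, had 65226, 61891 and 52235 normalised reads in input against 18747, 19433 and 24364 in PABPN RIP. Its log2 fold change of -1.52 (SE 0.14, adjusted p = 1.50e-26) did not differ from that of MT-CO2 beyond the errors (difference 0.16, SE 0.17, BH-adjusted p = 0.397).

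Both messages for subunits of complex V, the ATP synthase, were depleted. MT-ATP6 forms part of the proton channel and had 13572, 13612 and 12097 normalised reads in input against 3479, 2986 and 3563 in PABPN RIP. This is a log2 fold change of -1.97 (SE 0.11, adjusted p = 8.27e-66), or a 3.92-fold lower level. MT-ATP8, a small membrane subunit, had 1142, 1144 and 1036 in input against 424, 346 and 378 in PABPN RIP, a log2 fold change of -1.53 (SE 0.13, adjusted p = 4.34e-31). The difference between these fold changes did not pass the cut-off of 0.01 (0.44, SE 0.17, two-sided normal test, BH-adjusted p = 0.0158).

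Complex I, the NADH dehydrogenase through which most electrons enter the chain, supplied the lowest values. MT-ND3, a small membrane subunit, had 3183, 3354 and 2861 normalised reads in input and 1047, 925 and 1195 in PABPN RIP, with a log2 fold change of -1.57 (SE 0.13, adjusted p = 7.94e-32). MT-ND4, a subunit of the proton-pumping arm, fell from 27175, 27737 and 23316 to 4498, 4175 and 5131, or 5.67-fold (log2 -2.50, SE 0.12, adjusted p = 1.58e-91). MT-ND5, the largest subunit of that arm, fell from 18149, 19387 and 16240 to 2087, 2484 and 2919, or 7.18-fold (log2 -2.84, SE 0.14, adjusted p = 9.85e-89). The largest depletion was that of MT-ND4L, a small subunit of the membrane arm, with 4902, 4973 and 4177 normalised reads in input and 395, 397 and 524 in PABPN RIP. This was 10.7-fold (log2 -3.42, SE 0.14, adjusted p = 6.44e-123).

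For each of the 8 messages the 3 PABPN RIP libraries lay below the 3 input libraries, as they did for 34.2% of the 14580 genes with recovered reads. With 3 libraries against 3 the exact permutation test can go no lower than a two-sided p of 0.1, which all 8 reached. In order of fold change, MT-CO2, MT-CO3, MT-ATP8 and MT-ND3 were not separated by the test between neighbours (adjusted p from 0.397 to 0.947), and the step from MT-ND3 to MT-ATP6 did not pass the cut-off of 0.01 (0.40, SE 0.17, adjusted p = 0.0282). MT-ATP6 and MT-ND4 differed (0.53, SE 0.17, adjusted p = 0.00231), as did MT-ND5 and MT-ND4L (0.57, SE 0.20, adjusted p = 0.00676), whereas the step from MT-ND4 to MT-ND5 did not pass (adjusted p = 0.0861). Without the 3 libraries that stood apart all 8 were still depleted, against 14.2% of genes, with values between -3.42 for MT-ND4L and -1.39 for MT-CO2.

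The second question was the same for PABPC. Here the 8 messages divided: MT-ND4L, MT-ND5, MT-ATP8 and MT-ND4 were depleted, 4 of 8 against 32.4% of the 14843 genes tested, and 0 of 8 were enriched against 38.4%, in the DESeq2 Wald test, and 0 of 8 with limma against 35.9%. MT-CO2 had the highest log2 fold change of the 8 with PABPC, 0.37, which met neither the fold change cut-off nor the cut-off for significance. The median of the 8 was -0.31 on the log2 scale, and that of all genes 0.14, while nuclear-encoded protein coding genes had a median of 0.25. The lowest of the 8, at -1.87, lay above the 5th percentile of all genes, -2.79. The median of the 8 was -0.16 without PABPC RIP library 3 and -0.63 when weighted by inverse variance, and its sign turned, to 0.22, over the 4 messages whose frames overlap a neighbour by no more than 1 base.

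MT-ND4L and MT-ND5 were low in all PABPC RIP libraries. MT-ND4L had 4215, 4271 and 3535 normalised reads in input, now on the scale of the PABPC table, and 1127, 1186 and 988 in PABPC RIP, a 3.64-fold depletion (log2 -1.87, SE 0.13, adjusted p = 6.32e-47). MT-ND5 had 15604, 16648 and 13744 in input and 5423, 5186 and 3336 in PABPC RIP, a 3.30-fold depletion (log2 -1.72, SE 0.18, adjusted p = 1.46e-21). RIP and input libraries did not overlap for either gene.

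MT-ATP8 and MT-ND4 passed by a small margin. MT-ATP8 had 982, 983 and 877 normalised reads in input and 693, 710 and 422 in PABPC RIP (log2 -0.64, SE 0.19, adjusted p = 0.00158). MT-ND4 had 23365, 23818 and 19732 in input and 15965, 18251 and 12657 in PABPC RIP (log2 -0.51, SE 0.15, adjusted p = 0.00135). In both, PABPC RIP library 3 was the lowest, and without it the values were -0.43 (adjusted p = 0.0668) and -0.38 (adjusted p = 0.0385), neither of which passed. MT-ND4 also missed the fold change cut-off without input library 1 (-0.48) or input library 2 (-0.46).

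The other messages met no cut-off with PABPC. MT-CO2 had 24535, 23955 and 22906 normalised reads in input and 32335, 36928 and 23274 in PABPC RIP (log2 0.37, SE 0.16, adjusted p = 0.0328). MT-CO3 had 56080, 53147 and 44205 in input and 71962, 74451 and 39355 in PABPC RIP (log2 0.28, SE 0.21, adjusted p = 0.248). For both, PABPC RIP libraries 1 and 2 lay above all input libraries and library 3 did not. MT-ND3 had 2737, 2880 and 2421 in input and 3324, 3535 and 2190 in PABPC RIP (log2 0.17, SE 0.18, adjusted p = 0.403), and MT-ATP6 had 11669, 11688 and 10237 against 10944, 12489 and 7858 (log2 -0.10, SE 0.16, adjusted p = 0.601). Their 95% intervals reached from -0.17 to 0.51 and from -0.43 to 0.22. The value of MT-ND3 lay below the median of nuclear-encoded coding genes, 0.25, so its sign turns where that median is set to 0, and the sign of MT-ATP6 turned without PABPC RIP library 3 (0.07).

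**Figure D2:**
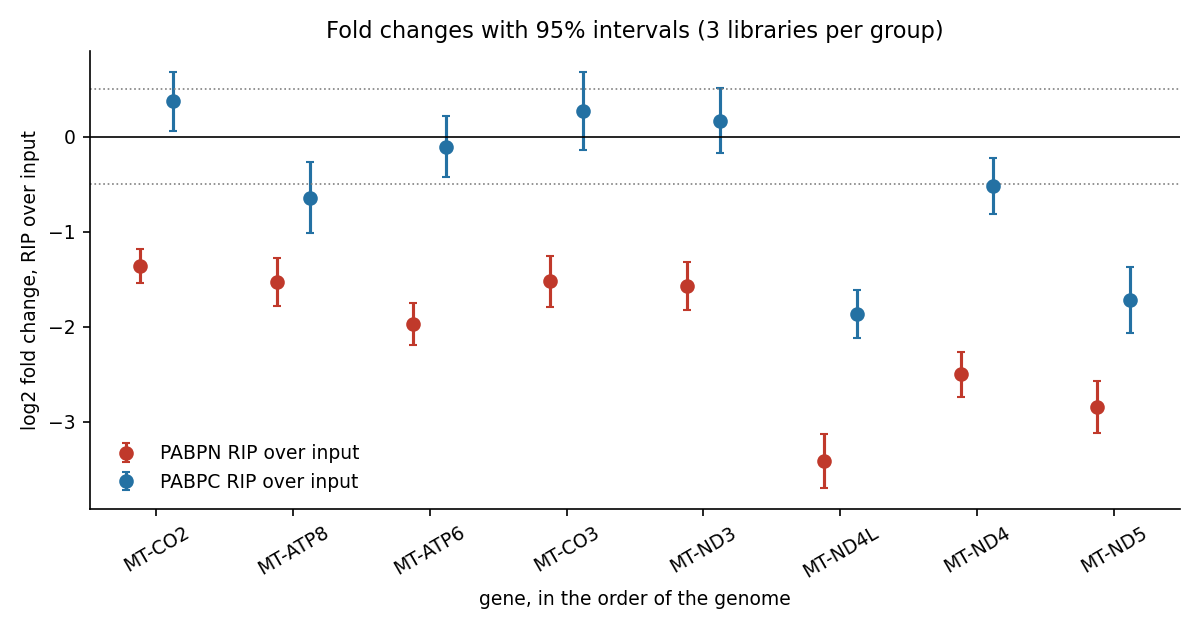
Log2 fold change of each RIP over input with its 95% interval, genes in the order of the genome; dotted lines mark 0.5 and -0.5. All PABPN values lie between -3.42 and -1.36, and PABPC values between -1.87 and 0.37, with MT-ND4L and MT-ND5 lowest in both.

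PABPC RIP library 3 carried much of the spread of these messages. Its deviation from the other PABPC RIP libraries was -0.90 for MT-CO3, -0.73 for MT-ATP8 and between -0.67 and -0.43 for 5 further messages, and was -0.23 for MT-ND4L. Of the 8, 6 lay below the 5th percentile of all genes in that library, -0.52. The coefficient of variation among PABPC RIP libraries had a median of 23.3% over the 8, against 9.69% over 12557 genes with more than 200 normalised reads on average, whereas in input the medians were 8.41% and 8.12%. Input library 3 was below the other input libraries for all 8 messages too (by 0.06 to 0.28). PABPN RIP library 1 was below for 5 of 8, but PABPN RIP library 2, which did not stand apart, was below for 7 of 8. The part of PABPC RIP library 3 in the results was not tested beyond leaving libraries out.

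Within the 3 libraries that stood apart, PABPC over input was 0.02 for MT-CO2, -0.17 for MT-CO3 and -0.15 for MT-ND3. Within the other libraries the same values were 0.51, 0.42 and 0.29. MT-ND4L hardly moved, with -1.84 and -1.87, and the median gene was at 0.11 in both sets. Without the 3 libraries 2 messages were depleted from PABPC (31.1% of genes), MT-ND4L and MT-ND5, and 0 were enriched (37% of genes), whereas limma without these libraries called 4 depleted (34.4% of genes). Leaving out PABPC RIP library 3 alone left MT-ND4L and MT-ND5 as the 2 depleted messages (31.5% of genes) and gave 1 enriched message, MT-CO2, at 0.54 (adjusted p = 0.00510), against 38.7% of genes. The PABPN values moved most between the sets for MT-ATP8, from -1.29 to -1.66. For 4 of the 8 messages all PABPC RIP libraries lay below all input libraries (39% of genes), and for 0 of 8 all lay above (44.6% of genes).

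The difference between the RIPs was tested directly as the PABPN fold change minus the PABPC fold change of the same gene. All 8 messages were lower with PABPN than with PABPC (two-sided normal test, difference below -0.5 and BH-adjusted p of at most 0.01), as were 33.4% of the 14581 genes. The median difference of the 8 was -1.74 and that of all genes 0.07. MT-ND4 showed the largest difference (-1.99, SE 0.19, adjusted p = 5.35e-24), a 3.97-fold lower recovery with PABPN. MT-ATP6, MT-CO3, MT-ND3 and MT-CO2 lay together between -1.87 and -1.74. MT-ND4L followed at -1.55, and the smallest differences were those of MT-ND5 (-1.12, SE 0.23, adjusted p = 1.40e-06) and MT-ATP8 (-0.89, SE 0.23, adjusted p = 0.000176). The messages lowest in both RIPs were thus not those that differed most between the RIPs.

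Frames that lie on the same message could be compared within each library, where the size factor cancels. In input, MT-ND4L had 18.0, 17.9 and 17.9 reads per 100 reads of MT-ND4. In PABPN RIP it had 8.77, 9.51 and 10.2, and in PABPC RIP 7.06, 6.50 and 7.81. The ratio was nearly constant in input and about 1.89-fold lower with PABPN and 2.53-fold lower with PABPC, with no overlap between either RIP and input. The fold change of MT-ND4L minus that of MT-ND4 was -0.91 with PABPN (SE 0.19, BH-adjusted p = 2.61e-06) and -1.35 with PABPC (SE 0.20, BH-adjusted p = 2.76e-11).

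The other pair moved in opposite directions. MT-ATP8 had 8.41, 8.41 and 8.56 reads per 100 reads of MT-ATP6 in input, 12.2, 11.6 and 10.6 in PABPN RIP and 6.33, 5.68 and 5.37 in PABPC RIP. All PABPN RIP libraries thus lay above input, 1.35-fold on average, and all PABPC RIP libraries below it, 1.46-fold. Tested from the fold changes and their errors, taken as independent between genes, the differences of 0.44 and -0.54 did not pass (BH-adjusted p = 0.0158 and 0.0455). The exact permutation p of the ratios was 0.1 in each of these comparisons, the smallest that 3 against 3 allows. Among all pairs of the 8, the ratio did not overlap with input in 23 of 28 with PABPN and 24 of 28 with PABPC. The share over pairs of other genes was not computed, so these counts cannot be read as particular to the 8. How reads in the shared bases were assigned is known only in outline, from the removal of stretches shared by overlapping genes, and reads near a join can count for either frame.

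**Figure D3:**
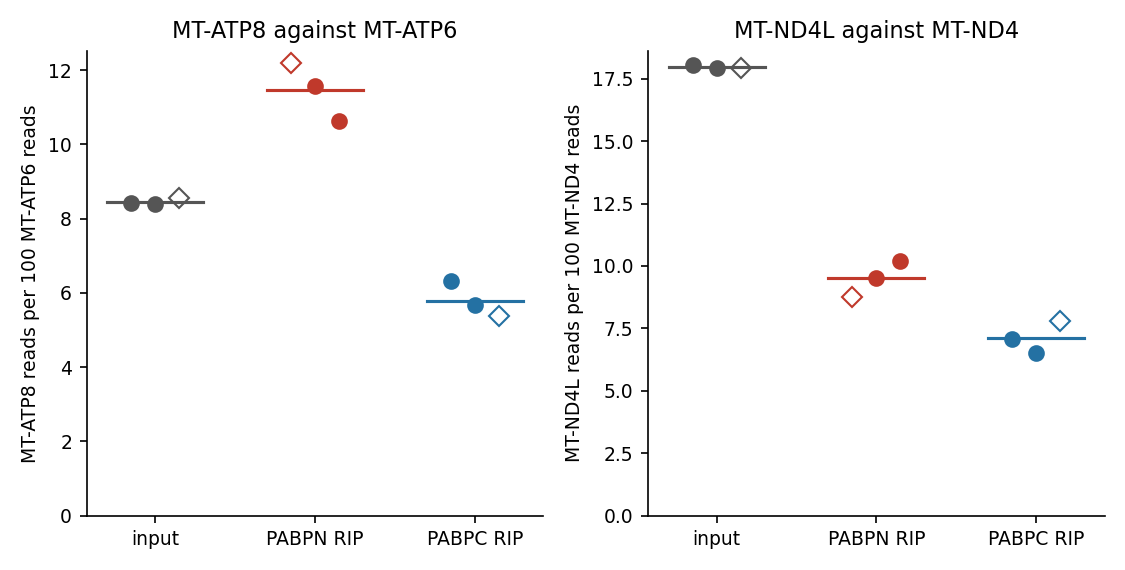
Reads of MT-ATP8 per 100 reads of MT-ATP6 (left) and of MT-ND4L per 100 reads of MT-ND4 (right) in each library; bars are means of 3 libraries and open diamonds the libraries that stood apart. MT-ND4L falls from 17.9 to 18.0 in input to 10.2 or less in both RIPs, while MT-ATP8 lies above input in PABPN RIP and below it in PABPC RIP.

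Over all pairs of messages, 18 of 28 fold changes differed in the PABPN comparison and 18 of 28 in the PABPC comparison (two-sided normal test, BH-adjusted over the 56). The share over pairs of other genes was not computed, so these counts cannot be read as particular to the 8. The test took errors as independent between genes, although PABPC RIP library 3 was lower for all 8 messages. In the PABPC comparison MT-CO2, MT-CO3, MT-ND3 and MT-ATP6 formed a group without a difference between neighbours in rank, then MT-ND4 and MT-ATP8, and the step down to MT-ND5 was the only one between neighbours that passed (1.08, SE 0.26, adjusted p = 6.54e-05). MT-ND5 and MT-ND4L could not be separated there (0.14, SE 0.22, adjusted p = 0.575).

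The messages were also set in order by how far the centre of the gene lies from the last coding base of its RNA. This distance was 172.5 bases for MT-ND3, 340.0 for MT-ATP6, 341.5 for MT-CO2, 391.5 for MT-CO3, 688.5 for MT-ND4, 738 for MT-ATP8, 905.5 for MT-ND5 and 1519 for MT-ND4L. The 4 genes nearest to that base had the 4 highest PABPC values, and MT-ND5 and MT-ND4L, the farthest, had the lowest values in both RIPs. Spearman's rho across the 8 genes was -0.81 with PABPC and -0.57 with PABPN, and with PABPN MT-ATP8 lay above MT-ATP6 and MT-ND4, which are nearer. The span of coding sequence on the RNA, from 346 to 1812 bases, gave rho of -0.83 and -0.80, and GC content, from 39.6% to 46.6%, gave 0.48 and 0.29. These are descriptions over 8 genes of 1 transcript, of which 4 share an RNA, and the RNAs of MT-CO2 and MT-ND5 go on past the last codon, which the distance leaves out.

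**Figure D4:**
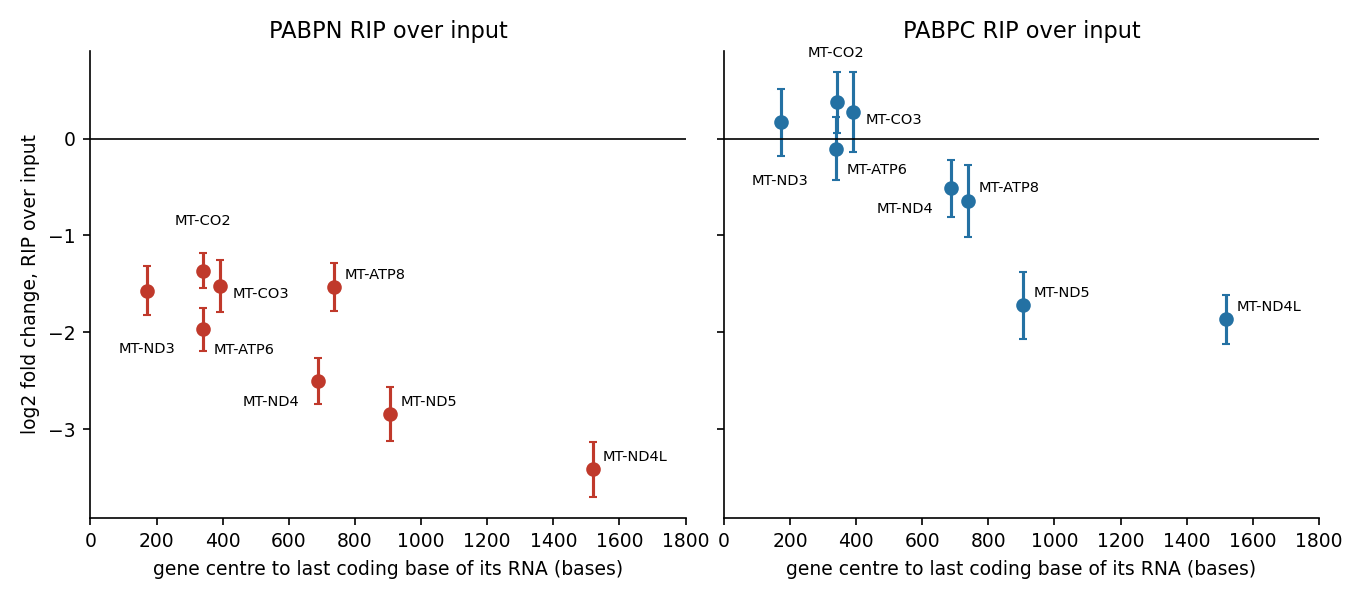
Log2 fold change with its 95% interval against the distance in bases from the centre of each gene to the last coding base of its RNA, PABPN RIP on the left and PABPC RIP on the right. MT-ND4L at 1519 bases and MT-ND5 at 905.5 are lowest in both panels, and MT-ATP8 at 738 lies above MT-ND4 at 688.5 with PABPN but not with PABPC.

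The make-up of the mitochondrial message pool differed between the RIPs and input. MT-CO3 was 38.8% ± 1.37 (SD, n = 3) of the reads on the 8 messages in input, 47.3% ± 2.10 in PABPN RIP and 47.7% ± 3.64 in PABPC RIP. MT-CO2 was 18.2% ± 1.12 in input, 24.7% ± 1.62 in PABPN RIP and 24.3% ± 1.52 in PABPC RIP. MT-ND5 was 11.7% ± 0.453, 5.66% ± 0.561 and 3.64% ± 0.221, and MT-ND4 was 17.0% ± 0.322, 10.5% ± 0.324 and 12.4% ± 1.45. For each of these the RIP libraries did not overlap with the input libraries. The shares of a library add up to the whole, so a fall in some messages raises the others. How often such shares fail to overlap for other sets of genes was not computed. MT-ATP6 was 8.53% ± 0.160 in input, 7.62% ± 0.649 in PABPN RIP and 8.21% ± 0.503 in PABPC RIP. Its highest PABPN RIP library, at 8.37%, lay just below the lowest input library, at 8.38%, and PABPC RIP overlapped with input.

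Of the other genes of the mitochondrial genome, only MT-CO1, for the catalytic subunit of complex IV, was listed, and for PABPC only. In all, 8 mitochondrially encoded genes were listed for PABPN and 9 for PABPC. Whether the authors' removal of genes with upstream transcription left the others out was not tested. Its log2 fold change with PABPC was -0.53 (SE 0.17, adjusted p = 0.00273), a depletion near the cut-off, from a mean of 68070 normalised reads in input to 47140 in RIP. MT-CO1 was thus lower with PABPC than its partners MT-CO2 and MT-CO3, a difference not tested. Nuclear copies of mitochondrial genes, remnants of mitochondrial DNA in the chromosomes, can take reads of near-identical sequence. Of 345 such names, 3 passed the filter in each comparison, with 3 depleted from PABPN (14.6% of all genes) and 2 from PABPC (32.4% of all genes). MTATP6P1 had 1220, 1291 and 1260 reads in input, 251, 242 and 268 in PABPN RIP and 591, 728 and 581 in PABPC RIP (log2 -2.48, SE 0.12, and -0.70, SE 0.18). MTND2P28 was at -2.52 (SE 0.18) and -1.12 (SE 0.21), and MTCO1P12, with a mean of only 51.1 normalised reads in the PABPN table, at -2.30 (SE 0.31) and -0.34 (SE 0.28), the last without a call. Reads of these copies and of the mitochondrial genes cannot be assigned with certainty.

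The complexes that hold these proteins are mostly built from subunits encoded in the nucleus, whose messages are translated in the cytoplasm. The shares over all genes were 38.4% enriched and 32.4% depleted with PABPC, and 17.5% enriched and 14.6% depleted with PABPN. Of the 37 nuclear subunits of complex I, 34 were enriched and 2 depleted with PABPC, with a median log2 fold change of 1.70, and 22 were depleted and 1 enriched with PABPN, with a median of -0.56. The highest value with PABPC was that of NDUFB11 (2.41) and the lowest that of NDUFA10 (-1.14), while with PABPN they were those of NDUFV1 (0.59) and NDUFS5 (-1.63). All 11 of complex IV were enriched with PABPC (median 2.11, from COX6C at 1.61 to COX8A at 2.38) and all 11 were depleted from PABPN (median -1.14, from COX6B1 at -1.56 to COX7A2 at -0.57). Of the 18 of complex V, 17 were enriched with PABPC (median 1.91, from DMAC2L at 0.39 to ATP5F1D at 2.51), and 12 were depleted and 0 enriched with PABPN (median -0.75, from ATP5F1A at -1.88 to DMAC2L at 0.45). With PABPC the mitochondrial messages, at most 0.37, lay below all 11 nuclear messages of complex IV. The lowest of complex V, DMAC2L at 0.39 (SE 0.13), lay within the errors of MT-CO2 at 0.37 (SE 0.16), which was at 0.54 without PABPC RIP library 3.

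**Figure D5:**
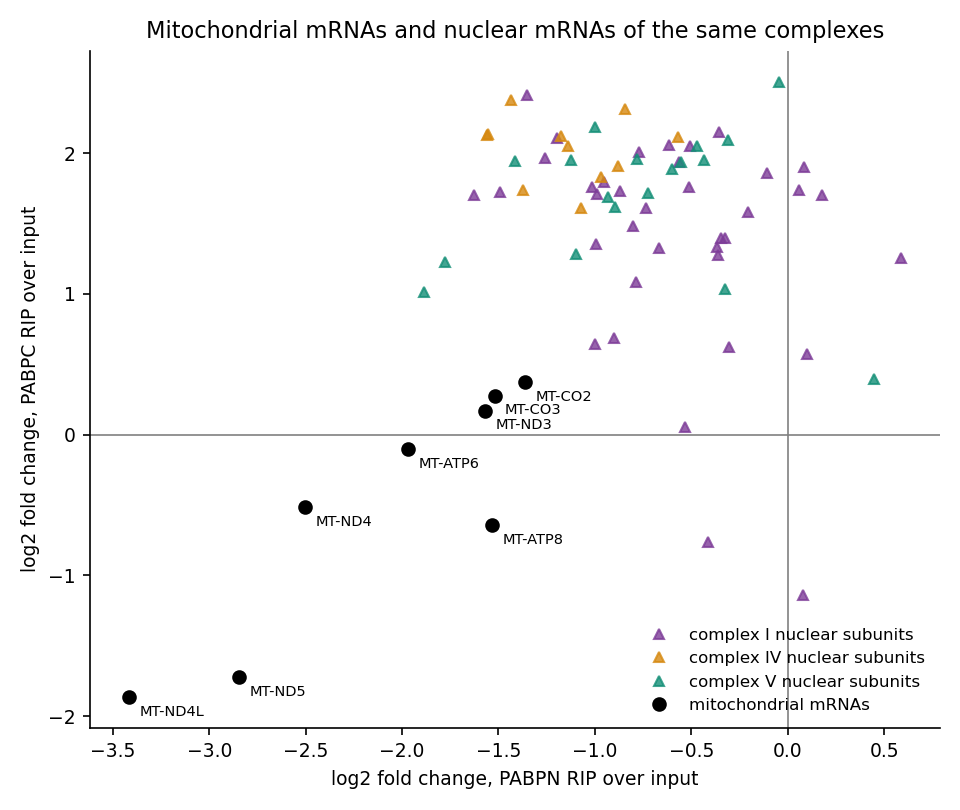
Log2 fold change with PABPC against that with PABPN (both over the same input libraries) for the 8 mitochondrial messages (black circles) and the nuclear messages of complexes I, IV and V (triangles). The nuclear messages of complexes IV and V lie at 0.39 or higher on the vertical axis, and the mitochondrial ones between -1.87 and 0.37. Of complex I, 34 of 37 are enriched with PABPC, but NDUFA10 (-1.14), NDUFS4 (-0.77) and NDUFS1 (0.05) lie within the mitochondrial range.

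Nuclear genes for the mitochondrial RNA machinery were called in both directions. Of 26 tested, 7 were depleted and 3 enriched with PABPN (median -0.31), and 3 were depleted and 11 enriched with PABPC (median 0.32). Among all genes 14.6% were depleted and 17.5% enriched with PABPN, and 32.4% were depleted and 38.4% enriched with PABPC. MTPAP, the polymerase that makes the tails, was at -0.12 with PABPN and -0.08 with PABPC, without a call in either. LRPPRC, which stabilises mitochondrial messages, was depleted from both (-0.58 and -0.65), and SLIRP, its binding partner, was depleted from PABPN (-0.75) and enriched with PABPC (1.56). SUPV3L1, the helicase of the mitochondrial degradosome, was depleted from PABPN (-0.57) and had 0.14 with PABPC, and PNPT1, its nuclease partner, had -0.30 and -0.22. POLRMT, the mitochondrial RNA polymerase, had -0.26 and 0.45, neither of them called.

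Replication-dependent histone genes, whose messages end in a stem-loop and not in a tail, give a scale for depletion. Of 49 tested with PABPN 46 were depleted (14.6% of all genes), with a median of -4.64. Of 48 tested with PABPC 45 were depleted (32.4% of all genes), with a median of -2.81. All 8 mitochondrial messages lay above these medians in both comparisons. The genes with the pattern most like the median of the 8 messages, by distance over the 2 fold changes among 14571 other genes, included FN1, TLN1, MYH9 and NCL. FN1, which encodes fibronectin, was nearest with -1.60 (SE 0.15) for PABPN and -0.34 (SE 0.20) for PABPC, against medians of -1.77 and -0.31 for the 8. TLN1 and MYH9, for talin and a non-muscle myosin heavy chain, were at -1.43 and -0.39, and at -1.35 and -0.28. NCL, for the nucleolar protein nucleolin, was at -1.82 and 0.14.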

How the data were processed

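RNA from 9 HEK293T libraries (3 groups of 3) was sequenced as single-end reads of 75 nt. According to the labels and methods, the authors aligned reads to hg38 with STAR, counted introns and exons together with featureCounts 2.0.2 and compared each RIP with input in DESeq2. The deposited signal column, baseMean, is the mean of reads over size factor in 6 libraries. The deposited log2 columns hold the fold change and its standard error, and the deposited p-value columns the Wald p and its BH adjustment. These columns are comparisons made by the authors and were used because the 2 tables hold no others. The tables, for PABPN and PABPC in turn, list 51234 and 51391 entries, and for the 123 identifiers repeated in each only the entry read first was used. The authors removed stretches shared by overlapping genes from the annotation, and genes with transcription running in from upstream separately for each RIP. The strand setting of the counting is not given in the sources used here.

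Reads per library were worked out in Python 3.11.15. Frequent low baseMean values gave the size factors, and whole numbers were sought that returned both baseMean values to the last digit. They were accepted only if a negative binomial fit with group as its factor returned both deposited fold changes to within 1e-11. The procedure was tested on simulated data. A library could not be tied to a replicate number.

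Genes were called at a log2 fold change beyond 0.5, adjusted p of at most 0.01 and baseMean above 50, the cut-offs of the methods. The difference between RIPs was tested with both standard errors added in quadrature, which counts the shared input in each. Refits without a library kept each gene's dispersion. As an alternative, limma 3.58.1 was run on log2 of the recovered reads plus 0.5. The members and lists were chosen with earlier results of these data known. The genes named were the 8 messages, other mitochondrially encoded genes, the nuclear copies with the highest baseMean, fixed members of the machinery list, the highest and lowest subunit of each complex and the 5 nearest genes, of which 1 is not reported here. Deposited standard errors and p-values rest on the count model fitted to these libraries and not on their spread alone. Tests between messages took errors as independent between genes, although PABPC RIP library 3 was lower for all 8 messages.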

Additional observations from a re-analysis of the deposited data

Results flagged for a closer look

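The fold changes of the 2 RIPs differed by the test of the difference for all 8 messages, each lower with PABPN. PABPN minus PABPC was -1.99 for MT-ND4, -1.87 for MT-ATP6, -1.80 for MT-CO3, -1.74 for MT-ND3, -1.74 for MT-CO2, -1.55 for MT-ND4L, -1.12 for MT-ND5 and -0.89 for MT-ATP8 on the log2 scale, and 33.4% of all genes differed in that direction.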

How the results depend on the processing

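All 8 messages remained depleted from PABPN under every alternative run, and all 8 remained lower with PABPN than with PABPC except that 7 did so when a difference beyond 1 was asked for, MT-ATP8 being lost. The limma fits and the fit without the 3 libraries that stood apart were chosen after seeing the data. The count of 4 messages depleted from PABPC was 2, MT-ND4L and MT-ND5, with a log2 cut-off of 1, with the Wald test against a change of 0.5, and in the refit without the 3 libraries (4 with limma), and ranged from 2 to 4 when each library was left out. The count enriched with PABPC ranged from 0 to 1, the 1 being MT-CO2 without PABPC RIP library 3. MT-ATP6 with PABPC ranged from -0.253 to 0.0653 over these fits, and was 0.0047 without the 3 libraries. The median of the 8 was -1.98 with PABPN and -0.63 with PABPC when weighted by inverse variance. Without the messages whose frames overlap by more than 1 base it was -1.54 with PABPN and 0.22 with PABPC, a change of sign that comes from the smaller set, which leaves out MT-ND4L, MT-ND4, MT-ATP8 and MT-ATP6. Over protein coding genes alone the share of reads was 0.353% in input and 0.113% in RIP in the PABPN table, and 0.352% in input in the PABPC table. Of 102 alternatives for counts, medians and shares 90 stayed within 1.5 times a count or within 1 SD of a median or share, and of 128 for single messages 119 kept direction and call. No paired analysis was possible because the recovered libraries carry no replicate numbers. Reads of 1 gene were not recovered, and with 3 libraries a group the exact test cannot fall below 0.1.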
